A study of Mus musculus with 6 samples.

Results

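CD-numbered surface molecules were examined in expanded mouse natural killer (NK) cells. They are the genes whose symbol is Cd followed by a digit, less 9 such genes (Cd14, Cd28, Cd38, Cd55, Cd63, Cd69, Cd74, Cd96 and Cd160). The rule took 28 of the 518 gene probes in the deposited value table, and it used names only, not measured values. One of them, Cd3eap, is not a surface molecule: it encodes a subunit of RNA polymerase I and is listed because its symbol starts with the same letters. A further 22 CD-numbered names, among them Cd3e, Cd4 and Cd8a, occur only in tables whose columns could not be assigned to samples and were not analysed here.

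CD numbers name molecules of the leukocyte surface that antibodies recognise, so the genes share a naming scheme and not a pathway. NK cells kill targets when activating receptors outweigh inhibitory ones, and several of these molecules act at that contact. SLAM-family receptors bind each other or CD48 and signal through small adaptors. Tetraspanins organise other membrane proteins into clusters, and ligands such as PD-L1 engage inhibitory receptors on neighbouring lymphocytes.

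RNA was counted with a NanoString nCounter panel, which hybridises a fluorescent barcode to each transcript without amplification, in 6 libraries forming 3 groups of 2. All groups were NK cells of female C57BL/6 mice expanded for 12 days in medium with 10 ng/mL of IL-15 joined to its alpha receptor chain and purified again before RNA extraction. The first group had this cytokine complex alone and no treatment in its labels. The second was also grown with AgN2a-4P cells, a mouse neuroblastoma line engineered with co-stimulatory and adhesion ligands and irradiated at 100 Gy, and had no treatment in its labels. The third had the same feeder cells and then anti-TIM-3 antibody for 4 h. Havcr2 is the gene of TIM-3, an NK cell receptor. The labels conflict: a protocol shared by all samples names an isotype control antibody and describes feeder cells for every sample, so "untreated" and "IL-15 alone" follow the per-sample labels. If the untreated cells had no antibody incubation, the antibody and the 4 h incubation cannot be told apart. Replicate numbers come from the sample titles, and nothing says that the libraries came from separate animals, so p-values reflect only how much these libraries vary, and that variation may be technical.

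Library totals, as recovered counts, lay between 299485 and 441185, the lowest being that of anti-TIM-3 replicate 2. Across gene probes, replicate 3 of the IL-15 group was closer to replicate 2 of the untreated feeder group (r = 0.975) than to its own partner (r = 0.959), so those groups overlap. The pair treated with anti-TIM-3 correlated at 0.962, and at 0.736 to 0.902 with the remaining libraries. All 10 NK markers lay above every negative control in all 6 libraries. Havcr2 itself had 682 and 538 normalised counts with IL-15 alone, 717 and 1343 in untreated feeder cultures, and 87.9 and 24.3 after anti-TIM-3. A normalised count here is the deposited value taken out of log2. Equal housekeeping means in all libraries show the scale of these values, which no header or label states. In anti-TIM-3 replicate 2, 1 recovered count of a gene probe equalled 1.74 normalised counts. In the other libraries it equalled 0.73 to 1.24. In bulk RNA, fewer cells of a type and less RNA per cell cannot be told apart.

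Of the 6 genes that passed the test after anti-TIM-3, the promoters of Cd37, Cd9, Cd84 and Cd3d are printed because these had the 3 smallest p-values among the rises and the only fall. Each line gives the 250 bases before the RefSeq start of the gene in GRCm38.p6, 5′ to 3′ on the gene's own strand. Capitals mark matches on either strand to GGG followed by any 5 bases and CC, a loose NF-kB pattern, or to AGGAAG, a core of ETS-family sites.
Cd37, chr7:45238840-45239089, minus strand: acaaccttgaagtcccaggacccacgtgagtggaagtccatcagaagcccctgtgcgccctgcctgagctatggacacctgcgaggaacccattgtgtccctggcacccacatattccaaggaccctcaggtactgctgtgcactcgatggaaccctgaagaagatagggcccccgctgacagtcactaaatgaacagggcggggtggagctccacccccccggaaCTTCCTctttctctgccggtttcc
Cd9, chr6:125494761-125495010, minus strand: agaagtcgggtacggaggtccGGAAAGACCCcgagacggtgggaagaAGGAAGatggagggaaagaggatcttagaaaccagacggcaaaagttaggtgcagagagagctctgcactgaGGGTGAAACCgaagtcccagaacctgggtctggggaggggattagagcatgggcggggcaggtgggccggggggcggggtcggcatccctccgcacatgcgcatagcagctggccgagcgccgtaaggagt
Cd84, chr1:171839447-171839696, plus strand: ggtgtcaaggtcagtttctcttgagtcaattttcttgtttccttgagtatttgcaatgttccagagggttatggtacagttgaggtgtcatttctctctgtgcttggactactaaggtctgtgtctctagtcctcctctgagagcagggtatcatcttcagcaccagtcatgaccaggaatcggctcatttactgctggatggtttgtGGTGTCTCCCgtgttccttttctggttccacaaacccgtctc
Cd3d, chr9:44981536-44981785, plus strand: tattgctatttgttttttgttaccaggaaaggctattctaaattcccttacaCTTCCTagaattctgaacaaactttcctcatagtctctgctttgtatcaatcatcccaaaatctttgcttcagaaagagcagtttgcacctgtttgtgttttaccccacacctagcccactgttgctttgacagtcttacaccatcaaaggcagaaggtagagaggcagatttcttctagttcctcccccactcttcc
The pattern AGGAAG was chosen after matches to the other patterns had been seen. Cd37 and Cd3d held 1 match each to AGGAAG and none to the NF-kB pattern. Cd9 held 1 match to AGGAAG and 2 to the NF-kB pattern, and Cd84 held 1 match, to the NF-kB pattern. No match overlapped another. The interferon-response pattern, GAAA on either side of any 2 bases, was found in none of these windows. Of 32851 RefSeq promoters of the same length, 45.8% held the NF-kB pattern, 29.5% held AGGAAG and 2.98% held the interferon-response pattern, so the matches describe the letters of these windows and no more. Promoters were found in the table for 18 of the 28 genes, including all 6 that passed.

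Detection was judged on recovered counts, against the highest of the 8 negative controls in the same library, which lay between 6 and 12 counts. Of the 28 genes, 18 exceeded it in all 6 libraries. Among all 518 gene probes, 77.6% did so, against 18 of 28 here. The 18 were Cd164, Cd1d1, Cd244, Cd247, Cd27, Cd274, Cd37, Cd3d, Cd47, Cd48, Cd53, Cd68, Cd7, Cd70, Cd84, Cd9, Cd97 and Cd99. By group, 20 genes were above it in both IL-15 libraries, 24 in both untreated feeder libraries and 22 in both anti-TIM-3 libraries. The order of the groups depended on the threshold, and the share of all probes was not counted by group. The highest negative control was 11 and 11 counts with IL-15 alone, 6 and 12 in the untreated feeder group and 7 and 9 after anti-TIM-3. With at least 20 recovered counts required instead, the numbers were 19, 17 and 18. On the deposited scale they were 20, 24 and 27. None of the 10 genes that fell short somewhere had a recovered count above 38 in any library.

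**Figure D1:**
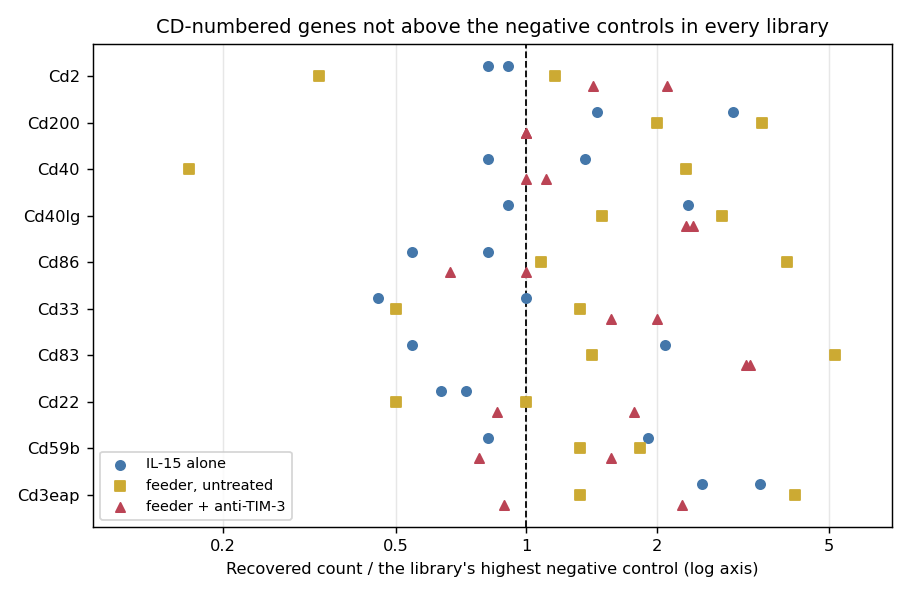
Recovered count of the 10 CD-numbered genes not above the negative controls in every library, divided by that library's highest negative control (log axis, dashed line at 1). Circles are IL-15 libraries, squares untreated feeder and triangles feeder with anti-TIM-3; the 2 anti-TIM-3 points of Cd200 coincide on the line.

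Among markers of other lineages, the B cell gene Cd22, an inhibitory receptor, was above the negative controls in only 1 library. Its recovered counts were 7 and 8 with IL-15 alone, 3 and 12 in the untreated feeder group, and 6 and 16 after anti-TIM-3, the last being the library above the controls. The myeloid lectin Cd33 and the B cell and dendritic cell receptor Cd40 were above them in 3 libraries each, and the complement regulator Cd59b in 4. Cd2, an adhesion receptor of T and NK cells that binds CD48, had 9 and 10 recovered counts with IL-15, 7 and 4 in untreated feeder cultures, and 10 and 19 after anti-TIM-3. It was above the negative controls in 3 libraries, both of the anti-TIM-3 group among them.

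Cd86, a co-stimulatory ligand of antigen-presenting cells, was above the negative controls in 2 libraries, both of the untreated feeder group. Its recovered counts were 6 and 9 with IL-15 alone, 24 and 13 in the untreated feeder group, and 7 and 6 after anti-TIM-3. CD86 is also among the ligands with which the feeder line was engineered. Of the 6 feeder markers looked for, the other one in the table was Icam1, which encodes CD54. Icam1 had 85.1 and 129 normalised counts with IL-15 alone, 159 and 122 in the untreated feeder group and 496 and 1054 after anti-TIM-3. Leukocytes also express Icam1, and the part of feeder RNA in any result was not tested.

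After anti-TIM-3, 5 of the 22 tested CD-numbered genes rose against untreated feeder cultures and 1 fell. The 5 were the tetraspanins Cd37 and Cd9, the SLAM receptor Cd84, the ligand Cd274 and the sialomucin Cd164, and the gene that fell was Cd3d, a chain of the T cell receptor complex. limma with Benjamini-Hochberg adjustment over 430 probes called 38.6% of all tested probes in this comparison. Here 27.3% were called (6 of 22), and whether so few genes differ from that background was not tested. The 27.3% leaves out the 9 genes excluded by the rule. Of these, Cd160, Cd38, Cd63, Cd69 and Cd74 passed as rises in this comparison, and Cd14, Cd28 and Cd96 did not pass. Cd55 passed as a fall, by -5.05 ± 0.76 on the log2 scale (limma adjusted p = 0.00919). The background splits into 31.4% rises and 7.21% falls. The median log2 difference of the 22 genes was 0.48, beside 0.47 over all tested probes. The other 6 genes (Cd2, Cd22, Cd33, Cd40, Cd59b and Cd86) had fewer than 2 libraries with 20 counts and were not tested.

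**Figure D2:**
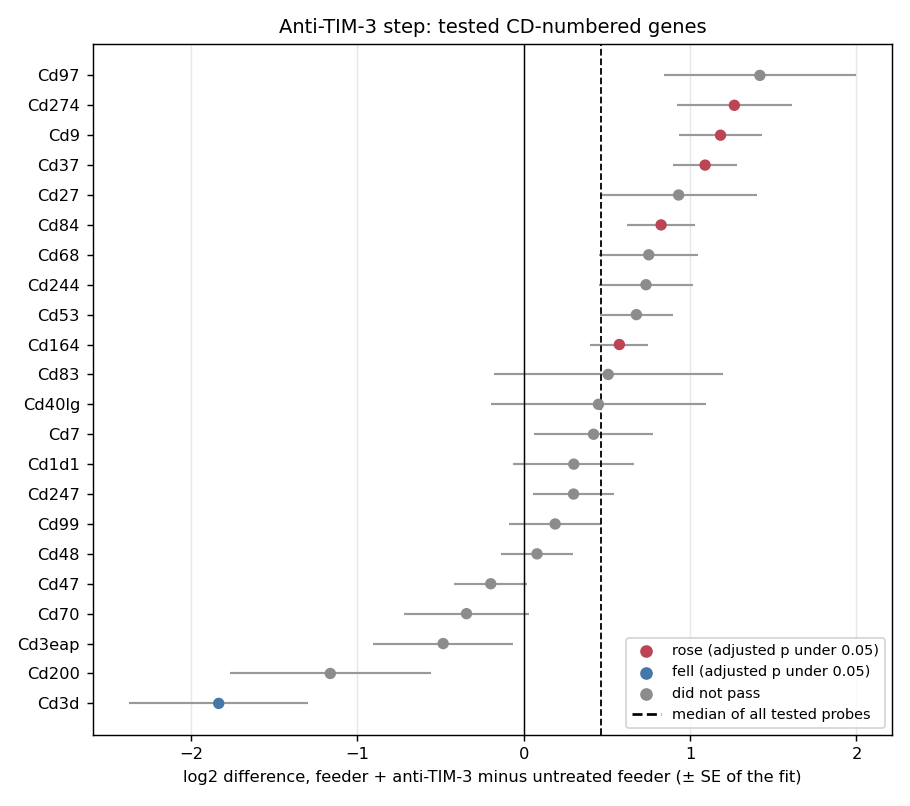
Log2 difference, anti-TIM-3 minus untreated feeder, for each of the 22 tested CD-numbered genes, with the standard error of the fit; the dashed line is the median of all tested probes, 0.47. Red points rose, the blue point (Cd3d) fell and grey points did not pass.

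The tetraspanins Cd37 and Cd9 gave the smallest p-values of the 22 genes. Cd37, a tetraspanin of mature lymphocytes, had 912 and 839 normalised counts with IL-15, 979 and 1167 in untreated feeder cultures, and 2056 and 2519 after anti-TIM-3. Both anti-TIM-3 values lay above all 4 others. The log2 difference from untreated feeder was 1.09 ± 0.19 (SE, n = 2 libraries per group, limma adjusted p = 0.0104), which is 0.62 above the median of all probes. Cd9, which associates with integrins and other membrane proteins, had 330 and 415 with IL-15, 556 and 382 in the untreated feeder group, and 981 and 1116 after anti-TIM-3. The anti-TIM-3 values again exceeded all others, and the log2 difference was 1.18 ± 0.25 (limma adjusted p = 0.0159). Cd53, another tetraspanin, had 111 and 140 in the untreated feeder libraries against 199 and 198 with IL-15 and 182 and 217 after anti-TIM-3. The untreated feeder values were the lowest, but the difference of 0.68 ± 0.22 did not pass (limma adjusted p = 0.0543); it passed with a filter of 50 counts (limma adjusted p = 0.0455).

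Of the SLAM family, Cd84 is a self-binding receptor that signals through SAP adaptors. Its normalised counts were 346 and 357 with IL-15, 331 and 407 in untreated feeder cultures, and 589 and 717 after anti-TIM-3. It rose by 0.83 ± 0.21 on the log2 scale (limma adjusted p = 0.0245), with both anti-TIM-3 values above all others while the IL-15 and untreated feeder values overlapped. Cd244, the 2B4 receptor that binds CD48, had 688 and 1132 with IL-15, 1244 and 1673 in the untreated feeder group, and 2367 and 2436 after anti-TIM-3. The 3 groups did not overlap, yet the difference from untreated feeder, 0.74 ± 0.28, did not pass (limma adjusted p = 0.0906). Its ligand Cd48 passed in no comparison, with means of 834 ± 106 (SD, n = 2) with IL-15, 1038 ± 92.9 in the untreated feeder group and 1107 ± 229 after anti-TIM-3. Cd7, an early lymphoid marker, had means of 44.3 ± 5.78, 60.0 ± 14.8 and 80.7 ± 23.4 in the same order, with overlapping feeder groups.

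Of the co-stimulatory receptors and ligands, Cd274 encodes PD-L1. It had 201 and 162 normalised counts with IL-15, 151 and 184 in untreated feeder cultures, and 289 and 557 after anti-TIM-3. Both anti-TIM-3 values exceeded the rest, and the log2 difference from untreated feeder was 1.27 ± 0.35 (limma adjusted p = 0.0316). The 2 anti-TIM-3 libraries differed widely: without replicate 1 the difference was 1.74, and without replicate 2 it was 0.79. Pdcd1lg2, which encodes the related ligand PD-L2 and is not CD-numbered, rose by 1.70 ± 0.42 (limma adjusted p = 0.0242). Cd27, a receptor of the TNF receptor family that marks NK cell maturation stages, had 20.9 and 46.8 with IL-15, 24.8 and 19.8 in the untreated feeder group, and 39.4 and 45.1 after anti-TIM-3. Its IL-15 values spanned nearly the whole range, and none of its differences passed. Its ligand Cd70 had group means between 19.4 and 24.6 and passed in no comparison. Cd200, an inhibitory ligand, had means of 19.6 ± 11.2, 25.2 ± 6.27 and 11.8 ± 5.47, and both anti-TIM-3 libraries stood at the level of their highest negative control. Cd40lg, the ligand of CD40, had 21.7 and 7.31 with IL-15, 16.8 and 22.2 in the untreated feeder group and 19.1 and 36.5 after anti-TIM-3, with the 3 groups overlapping.

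Of the adhesion and broadly expressed molecules, Cd164 encodes endolyn, a sialomucin of the cell surface and endosomes. Its normalised counts were 1510 and 1511 with IL-15, 1768 and 1951 in untreated feeder cultures, and 2584 and 2964 after anti-TIM-3. It rose by 0.58 ± 0.17 (limma adjusted p = 0.0427), which is 0.11 above the median of all probes. Cd97, an adhesion G protein-coupled receptor, had 30.04 and 55.6 with IL-15, 59.4 and 77.9 in the untreated feeder group, and 106 and 313 after anti-TIM-3. The groups did not overlap, but anti-TIM-3 replicate 2 lay far above replicate 1 and the difference of 1.42 ± 0.58 did not pass (limma adjusted p = 0.102). Without replicate 1 it was 2.20 and without replicate 2 it was 0.64. Cd47, the ligand of SIRPα that limits phagocytosis, had means of 1560 ± 128 with IL-15, 1651 ± 409 in the untreated feeder group and 1418 ± 33.0 after anti-TIM-3. Cd99, a leukocyte adhesion molecule, had 115 and 171 with IL-15, 196 and 264 in the untreated feeder group, and 271 and 248 after anti-TIM-3, where the feeder groups overlapped.

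Apart from Cd55, which the rule left out, Cd3d was the only tested CD-numbered gene that fell. Its normalised counts were 22.5 and 64.4 with IL-15, 190 and 188 in untreated feeder cultures, and 67.6 and 41.7 after anti-TIM-3. The untreated feeder values were the highest by a wide margin, and the other groups overlapped. The log2 difference was -1.83 ± 0.54 (limma adjusted p = 0.0396), or -2.30 against the median of all probes. Cd3d is a T cell marker. Of the 11 T cell markers looked for, only Cd3d and Cd40lg were in the value table. Their summed normalised count ran from 44.2 to 71.7 with IL-15, 207 to 210 in the untreated feeder group and 78.1 to 86.7 after anti-TIM-3. Cd3d itself made up most of this sum. Cd40lg alone had means of 14.5, 19.5 and 27.8 in that order and passed in no comparison. Whether T cells in the cultures contributed was not tested, since Cd3e, Cd3g, Cd4 and Cd8a were not analysed here. Cd247, the zeta chain that T cell and NK cell activating receptors share, had 296 and 376, 349 and 418, and 543 and 406 in the same order, with overlapping groups.

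**Figure D3:**
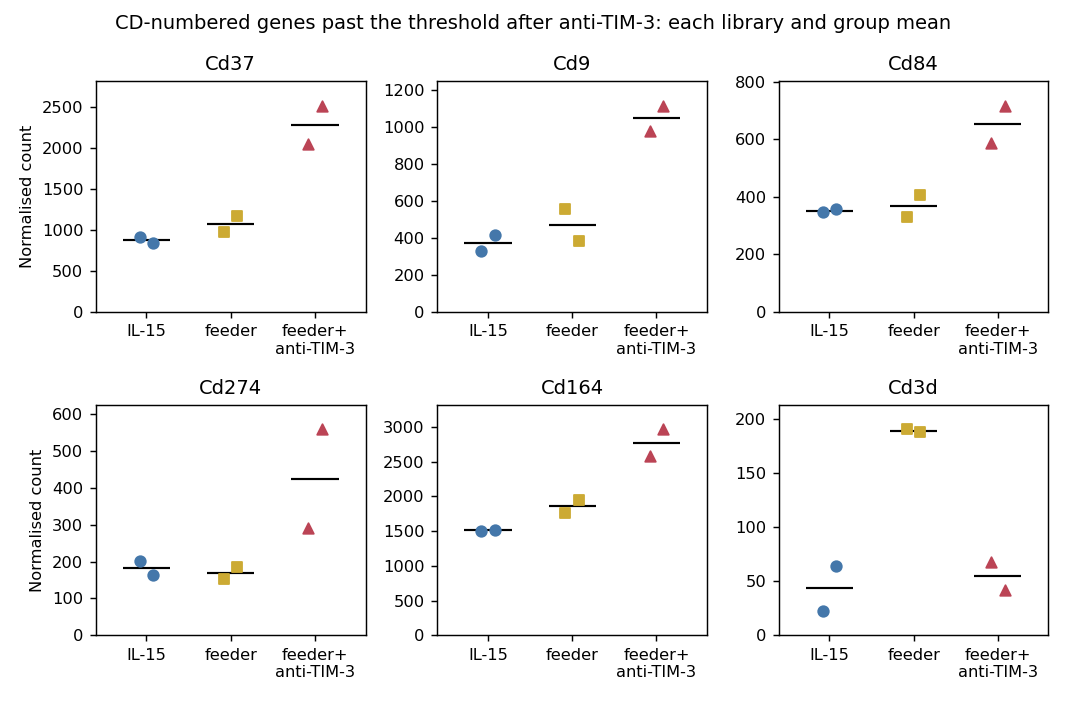
Normalised counts of the 6 CD-numbered genes past the threshold after anti-TIM-3, on axes starting at 0; points are libraries (2 per group) and bars group means. As normalised counts, the anti-TIM-3 values lie above both other groups in every panel but Cd3d, where the untreated feeder values of 190 and 188 are highest.

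None of the 3 tested CD-numbered myeloid and dendritic genes (Cd68, Cd1d1 and Cd83) passed in this comparison. Cd68, a lysosomal glycoprotein abundant in macrophages, had 49.2 and 35.1 normalised counts with IL-15, 68.3 and 70.4 in untreated feeder cultures, and 123 and 111 after anti-TIM-3. The 3 groups did not overlap, and the difference of 0.75 ± 0.30 did not pass (limma adjusted p = 0.0943). Of 14 myeloid markers, 6 were in the table, and their summed count was 156 to 224 with IL-15, 205 to 303 in the untreated feeder group and 332 to 405 after anti-TIM-3. Of the 6, Csf1r was above the negative controls in no library and Itgax rose by 1.71 ± 0.47 (limma adjusted p = 0.0337). Itgam (1.67), Cd14 (-1.12) and Tlr4 (-1.05) did not pass and lay in both directions (limma adjusted p of 0.0692, 0.174 and 0.128). NK cells also express Itgax and Itgam, and the part of myeloid cells was not tested. Cd1d1, which presents lipids to NKT cells, had means of 64.6 ± 13.7, 65.0 ± 23.4 and 77.7 ± 7.96. Cd83, an activation marker of dendritic cells and lymphocytes, had means of 10.9 ± 8.36, 25.9 ± 6.85 and 38.1 ± 17.3, with overlapping feeder groups. B cell markers stayed low: of 9 looked for, 3 were in the table, with summed counts of 30.9 to 35.8, 30.7 to 58.1 and 39.4 to 64.2. Only Tnfrsf13c was tested among them, and it passed in no comparison. Of the 10 NK markers, 5 rose and 2 fell against untreated feeder, beside 31.4% and 7.21% of all tested probes. The falls were Prf1 (-2.41 ± 0.39) and Eomes (-0.72 ± 0.18), and the rises Ncr1, Klrb1c, Klrd1, Tbx21 and Itga2. Cd3eap, the polymerase subunit, had means of 26.1, 22.3 and 16.0 and passed in no comparison.

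A list of receptors, ligands and signalling molecules was looked at for context, and not all of them bind these molecules. Of the 24 genes on this list, 17 were in the table and 14 were tested. After anti-TIM-3, 6 of the 14 rose and 1 fell against untreated feeder, beside 31.4% and 7.21% of all tested probes. The rises were Icosl, a ligand of the co-stimulatory receptor ICOS, by 2.58 ± 0.23, Pdcd1lg2 as given above, and the kinases Fyn, Zap70, Lck and Syk. The fall was Havcr2, the gene of the receptor that the antibody targets, by -4.41 ± 0.62 (limma adjusted p = 0.00884).

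These calls depended on the housekeeping scale. After scaling by positive controls, by total count or by median of ratios, the median difference of all tested probes was -0.04, 0.21 and -0.03 in place of 0.47. All 6 genes kept their direction on all 3, but fewer passed. Cd3d gave -2.34, -2.09 and -2.32 with limma adjusted p of 7.7e-04, 0.0539 and 0.0343. Cd37 gave 0.58, 0.83 and 0.60 with limma adjusted p of 0.50, 0.0188 and 0.0490, and Cd9, Cd84, Cd274 and Cd164 passed on none of the 3. Subtracting the negative-control mean ended the call of Cd3d (limma adjusted p = 0.0525). Cd164 also missed the threshold without the count filter, without both variance trend and robust moderation, and with only the 4 feeder libraries fitted (limma adjusted p from 0.0530 to 0.0749). In that last fit Cd244 passed (limma adjusted p = 0.0388). Across all 430 probes the split of rises to falls went from 135 to 31 on the housekeeping scale to 32 to 37, 62 to 37 and 53 to 49. Whether groups overlapped was also read on the housekeeping scale. In recovered counts, which are not scaled for depth, the anti-TIM-3 values of Cd84, Cd164, Cd244 and Cd68 overlapped other groups. Cd84, for one, had 523 and 413 after anti-TIM-3 against 415 and 488 with IL-15 alone. The anti-TIM-3 counts of Cd37, Cd9, Cd274 and Cd97 stayed above all others.

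Single libraries also decided calls. Without untreated feeder replicate 3, or without anti-TIM-3 replicate 2, none of the CD-numbered genes passed, with the lowest limma adjusted p at 0.0680 and 0.0532, both for Cd37. Over all 430 probes, the first of these fits called 0 and the second called 32 rises and 11 falls, so the loss was not particular to the CD-numbered genes in the first. Without untreated feeder replicate 2, only Cd9 passed, beside 47 rises and 16 falls over all probes. Without anti-TIM-3 replicate 1 and without either IL-15 library 6 passed, but Cd164 was lost in each case (limma adjusted p of 0.0622 to 0.0639). In its place Cd97 passed in the first case (limma adjusted p = 0.0230), and Cd244 passed without IL-15 replicate 1 or 3 (limma adjusted p of 0.0374 and 0.0377).

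The comparison of anti-TIM-3 with IL-15 alone combines feeder cells with the antibody and shares its libraries with both other comparisons. Here 9 of 22 genes rose and none fell, 40.9% against 50.9% of all tested probes. Of all tested probes, 44% rose and 6.98% fell, and the difference in share was not tested. The median log2 difference was 0.86, beside 0.70 over all tested probes. Cd244 rose by 1.44 ± 0.28, Cd68 by 1.49 ± 0.30 and Cd164 by 0.87 ± 0.17 (limma adjusted p = 0.00971 for each). Cd97 rose by 2.15 ± 0.58 (limma adjusted p = 0.0230) and Cd99 by 0.89 ± 0.28 (limma adjusted p = 0.0378). The other rises, with limma adjusted p from 0.00424 to 0.0333, were Cd37 (1.38 ± 0.19), Cd84 (0.89 ± 0.21), Cd274 (1.15 ± 0.35) and Cd9, which was 2.83-fold higher (SE 0.25 on the log2 scale). Cd83 came near with 1.98 ± 0.69 but did not pass (limma adjusted p = 0.0527). It passed by a narrow margin with a pseudocount of 4, with no count filter, or with neither variance trend nor robust moderation (limma adjusted p from 0.0481 to 0.0499). Fitting only the 4 libraries compared ended the calls of Cd97, Cd99 and Cd274 (limma adjusted p from 0.0508 to 0.0637). On other scales, Cd37 passed by total count (0.84) and by median of ratios (0.71), and Cd9 by median of ratios (0.83). Cd47 differed by -0.14 ± 0.22 and did not pass, but by total count (-0.67, limma adjusted p = 0.0328) and by median of ratios (-0.81, limma adjusted p = 0.0279) it was called lower, as was Cd53 by median of ratios (-0.66, limma adjusted p = 0.0390). Over all probes, the 189 rises and 30 falls became 47 and 47 by positive controls, 74 and 55 by total count, and 80 and 76 by median of ratios. With 1 library left out, 4 to 9 genes passed. Leaving out anti-TIM-3 replicate 2 left 4, namely Cd37, Cd9, Cd244 and Cd68 (95 rises and 18 falls over all probes), with Cd97 at 1.37 and Cd274 at 0.68. Leaving out IL-15 replicate 1 ended the calls of Cd84, Cd97 and Cd99, and leaving out IL-15 replicate 3 ended that of Cd274 and added Cd83 (2.85). Either untreated feeder library, left out, ended the calls of Cd274 and Cd99, and anti-TIM-3 replicate 1 that of Cd99.

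Feeder cells without antibody gave no call against IL-15 alone. limma called 0 of 22 CD-numbered genes and 0% of the 430 probes, and limma-voom on the recovered counts also called 0. At an unadjusted p under 0.05 there were 5 of the 22 and 39 of all probes. The 5 were Cd3d (2.31 ± 0.54) and Cd53 (-0.67 ± 0.22), each with a limma adjusted p of 0.441, and Cd99 (0.70 ± 0.28), Cd68 (0.74 ± 0.30) and Cd244 (0.71 ± 0.28), each with 0.521. Without IL-15 replicate 3, whose Cd3d value of 64.4 was the higher of its group, Cd3d passed with 3.07 (limma adjusted p = 0.0162), and 7 of all probes passed. Without IL-15 replicate 1 its difference was 1.55 (limma adjusted p = 0.639). The median difference was 0.31 for the CD-numbered genes and 0.19 for all tested probes.

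In level, 17 of the 22 tested genes had their highest group mean after anti-TIM-3 on the housekeeping scale, but this was 8, 11 and 10 when scaled by positive controls, total count and median of ratios. This count was chosen after the values were seen and was not made over all tested probes. On the housekeeping scale, the median difference of all tested probes after anti-TIM-3 was 0.47 from untreated feeder and 0.70 from IL-15 alone.

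**Figure D4:**
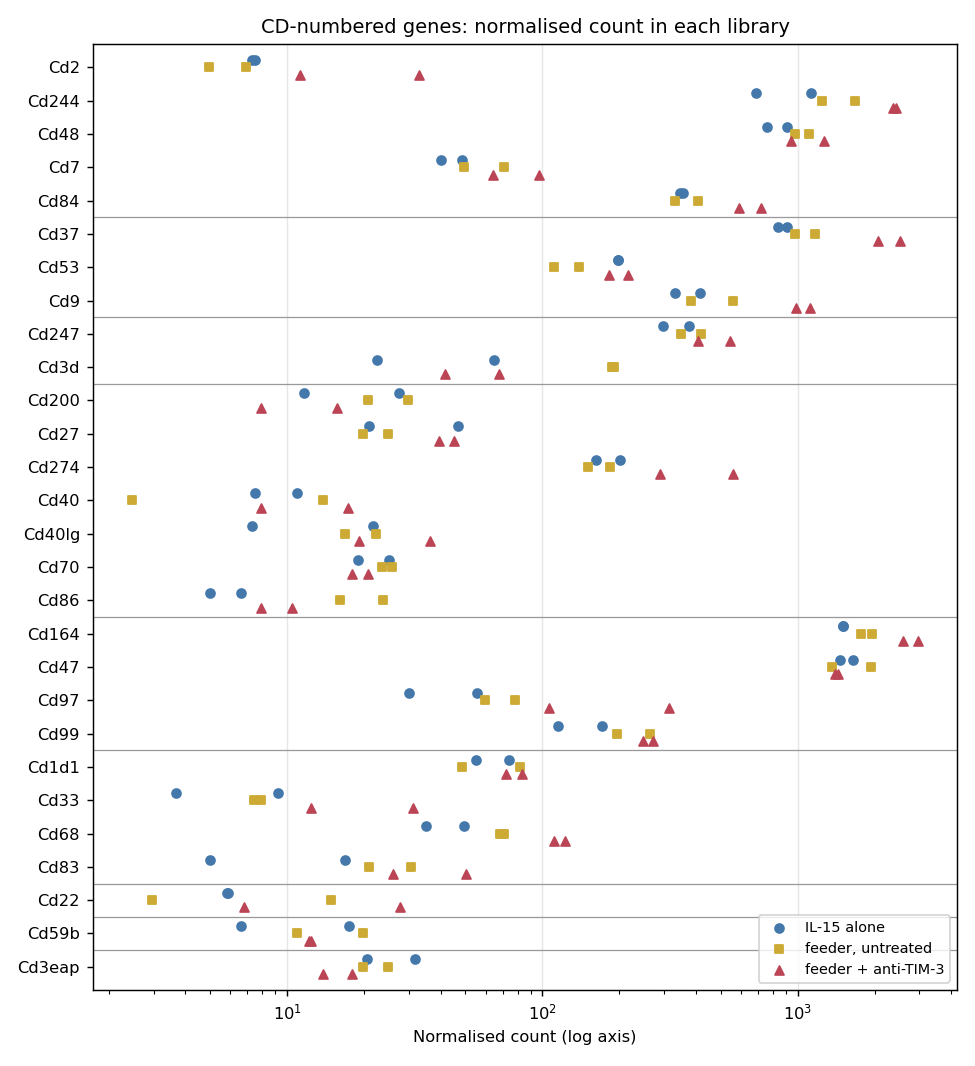
Normalised count of all 28 CD-numbered genes in each of the 6 libraries (log axis), grouped by role. Circles are IL-15, squares untreated feeder and triangles feeder with anti-TIM-3; levels of different genes come from different probes and are not comparable.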

How the data were processed

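RNA of 6 libraries was measured with a NanoString panel. The authors' deposited table holds log2 values. No header or label states the scaling; in the values, all libraries had the same housekeeping mean, 9.22 over 20 probes. The submitters' processing notes name limma, with no role. Steps between values gave back whole counts for 100.0% of 3191 values, within 0.01 of a whole number. Gene and control probes were on different scales, so comparison with negative controls used recovered counts. A further 18 columns and 12 rows named by instrument lane were not used, and of the authors' deposited comparison only gene names were read.

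The log2 values entered limma 3.58.1 (R 4.3.3) in a model with 3 groups over 6 libraries, a variance trend, robust moderation and Benjamini-Hochberg at 0.05. Probes with at least 20 counts in at least 2 libraries were tested (430; 88 left out), with no pseudocount. The code was tested on simulated data. Errors are the fit's SE, or SD over 2 libraries.

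The genes, lists and tests were chosen with earlier results of these data known. Values per library are given for genes that passed in any comparison and for lineage markers, and group means for most others. Single differences were followed through the alternatives where the unadjusted p was under 0.05 or a scaling gave a call, a rule chosen after the values were seen; others are given as levels. Other scalings, filters, pseudocounts, voom, a replicate block and left-out libraries were tried.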

Additional observations from a re-analysis of the deposited data

How the results depend on the processing

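In the comparison of anti-TIM-3 with untreated feeder, the 6 calls became 1 by positive controls, 1 by total count and 2 by median of ratios, and ran from 0 to 6 with 1 library left out. Against IL-15 alone, where all 9 calls were rises, 0, 2 and 4 genes were called on those scales. By total count these were 1 of the 9 rises and 1 new fall, and by median of ratios 2 of the 9 rises and 2 new falls. The calls over all probes also became fewer. Between untreated feeder and IL-15, 0 CD-numbered genes were called on each of those scales. With replicate number as a block, 0 and 1 of the CD-numbered genes passed against untreated feeder and IL-15, beside 47 rises and 14 falls, and 64 rises and 12 falls, over all 430 probes. Deviations of same-numbered libraries from their group means correlated at 0.080, 0.038 and -0.415, and any 2 groups share 1 number. With 2 libraries per group, the deviations of a group mirror each other, so these correlations cannot show whether samples were paired. Counting detection in at least 1 library gave 28 genes in place of 18. The 17 genes with their highest mean after anti-TIM-3 became 8, 11 and 10 by positive controls, total count and median of ratios. This last count and its scale and left-out-library alternatives were chosen after seeing the data. So was comparing negative controls on the deposited scale, which gave 20 genes in all libraries. Cd53 against IL-15, 0.01 and not past the threshold (0.13 without anti-TIM-3 replicate 1), turned to -0.73 by positive controls, -0.53 by total count, -0.66 by median of ratios, -0.014 with negative controls subtracted, -0.0036 with voom and -0.12 without anti-TIM-3 replicate 2. Each single difference was paired with each alternative. Of these pairs, 347 kept direction and side of the threshold, 93 lost a call, 12 gained one and 6 changed direction, the last being those of Cd53 just given. The 347 include differences that passed neither before nor after. Changing the filter or the moderation, or leaving out libraries of the group not compared, cannot alter a difference, so direction was fixed in those pairs. Of 39 differences not given singly, 23 changed sign under some alternative. The causes were not tested. Genes near the negative controls are limited by depth.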
